A study of Mus musculus with 15 samples.

Results

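Duxf3, Zfp352, Tdpoz3, Tdpoz4, AF067061, Tcstv1 and Tcstv3 are 7 mouse genes whose transcripts are best known from the embryo at the 2-cell stage. They are 7 of the 46517 genes in the RNA count tables and were chosen by their read counts, because those in Dnmt1 knockout kidneys stood apart from those in controls and because the knockout samples differed among themselves for some of them. The RNA values of knockout against control, and the differences among knockout samples, therefore chose the genes. Both are given below as a description with no test, and the intervals on them show counting error only. Methylation near the genes, and RNA of genes outside the set, were not used in the choice and were tested.

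The study examined kidneys of C57BL/6 mice at birth (postnatal day 0, P0) and in adulthood. Controls carried floxed alleles of Dnmt1 (Dnmt1 f/f) without Cre, and the knockouts (KO) carried the same floxed alleles with Six2Cre (Six2Cre Dnmt1 f/f). Messenger RNA was sequenced from 3 controls and 3 KO samples at P0, and reduced representation bisulfite sequencing (RRBS), which reads cytosine methylation near CCGG sites, covered 3 P0 controls, 3 P0 KO samples and 3 wild-type adults of 6 weeks, 15 samples in all. Six2-driven Cre acts in nephron progenitors and their descendants, so the vessels, stroma and collecting ducts of a KO kidney keep intact Dnmt1. The labels give the source as Six2-positive cells, but their extraction protocol names whole kidneys for DNA, and the values are described here as kidney samples. The labels do not say that replicates are separate animals, so the p-values measure the spread between these samples.

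Dux, the double homeobox transcription factor encoded by Duxf3, is produced briefly as the mouse embryo starts to transcribe its own genome, and it activates a group of 2-cell genes and the MERVL retroviral elements. In later cells the Dux repeat array and many of its targets are silent, and DNA methylation, repressive histone marks and chromatin assembly factors are known to take part in that silencing. Dnmt1 copies methylation onto the new DNA strand at each replication. The normal kidney is not known to use these genes.

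The RNA libraries held 26773937 to 34102567 gene counts. Levels are given as CPM, read counts scaled to a common library size. Across controls 1 to 3 Dnmt1 stood at 180.0, 156 and 188 CPM, and across KO 1 to 3 at 110, 111 and 93.7 CPM, a log2 fold change of -0.74 (SE 0.12, adjusted p = 0.00577 by the quasi-likelihood test of edgeR). Reads that did not align uniquely were left outside the gene counts and came to 14.0% to 24.6% of reads in controls and 22.5% to 28.0% in KO samples. After genes with low counts were removed 18132 remained, and 1153 (6.36%) were higher and 1493 (8.23%) lower in KO. Without control 3 these counts were 2512 and 2561, and without KO 1, the lowest, 647 and 701. They also moved by more than 1.5 times without KO 2 (742 and 779) or KO 3 (734 and 790), and the first without control 1 (734). The RRBS libraries held 18424875 to 88765177 calls. All 3 podocyte and all 4 tubule markers were lower in KO, and of 5 nephron progenitor markers Cited1 was lower and Eya1 higher. In whole tissue, fewer cells of a type and less RNA per cell cannot be told apart.

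RefSeq promoter windows (build GRCm38.p6) were found for 4 of the 7 genes, and the 250 bases before the start site are shown for 3 of them because they share short runs of sequence with each other. The window of Tdpoz1, a relative of Tdpoz3 and Tdpoz4, is shown for the same reason. Capitals mark 3 motifs: TGATTNAAT, the core of the published Dux binding motif, ACACACCTTTAAT, the longest run shared by the windows of Zfp352, AF067061 and Tdpoz1, and ATATAAG, a run that resembles the core promoter element near many start sites. Each sequence is written 5′ to 3′ in the direction of transcription.
Duxf3, chr10:58233090-58233339, minus strand: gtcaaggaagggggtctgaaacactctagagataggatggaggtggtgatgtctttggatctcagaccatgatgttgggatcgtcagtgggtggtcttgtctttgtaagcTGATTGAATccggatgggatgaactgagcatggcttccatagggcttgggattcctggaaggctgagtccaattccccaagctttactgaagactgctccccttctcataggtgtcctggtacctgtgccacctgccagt
Zfp352, chr4:90218570-90218819, plus strand: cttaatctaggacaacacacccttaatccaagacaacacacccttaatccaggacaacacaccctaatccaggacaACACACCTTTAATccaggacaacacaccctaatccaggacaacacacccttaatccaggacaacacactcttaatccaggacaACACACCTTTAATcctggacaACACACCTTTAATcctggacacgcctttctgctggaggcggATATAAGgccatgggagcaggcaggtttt
AF067061, chr13:120262845-120263094, plus strand: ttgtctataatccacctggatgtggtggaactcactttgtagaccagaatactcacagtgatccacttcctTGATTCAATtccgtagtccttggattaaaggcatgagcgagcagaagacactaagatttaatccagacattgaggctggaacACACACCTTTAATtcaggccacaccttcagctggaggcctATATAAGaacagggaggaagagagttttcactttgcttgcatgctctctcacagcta
Tdpoz1, chr3:93676284-93676533, minus strand: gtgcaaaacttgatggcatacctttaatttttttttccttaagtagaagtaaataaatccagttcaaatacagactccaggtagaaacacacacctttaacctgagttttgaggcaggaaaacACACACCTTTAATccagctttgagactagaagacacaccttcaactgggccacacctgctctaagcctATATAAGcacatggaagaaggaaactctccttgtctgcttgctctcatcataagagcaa

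The windows of Duxf3 and AF067061 each held TGATTNAAT once, with its first base 140 and 179 bases before the start site. Searched on both strands, the motif was present in 216 of 32851 RefSeq windows of the same length, 0.658%, and in 6 of the 26 windows found for related and other 2-cell genes, among them Zscan4b, Zscan4c and Zscan4f. The run ACACACCTTTAAT was present in 42 of all windows, 0.128%. Zfp352 held it 3 times, beginning 174, 91 and 70 bases before the start, AF067061 held it once at 97 bases, and Tdpoz1 held it once at 127 bases. ATATAAG lay closer to the start, at 29 bases in Zfp352, 57 in AF067061 and 59 in Tdpoz1, and was present in 2.3% of all windows. The motifs do not overlap one another and were chosen after the sequences had been read, so these matches are descriptions and not binding sites. The 4 windows found for genes of the set held at most 2 CG dinucleotides each, against a median of 6 over all windows, and 29.0% of all windows held no more than 2.

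Every one of the 7 genes had 0 counts in all 3 controls, and every one had counts in all 3 KO samples. A count of 0 allows up to 3 counts in a library, which is 0.0900 CPM per control library on average, and the folds below are lower bounds against that level. This limit is one-sided, and the two-sided intervals drawn for a count of 0 reach 3.69 counts. Over all genes in the tables, 549 of 46517 (1.18%) had no count in any control and counts in every KO sample. The summed level of the 7 genes was 48.4, 57.9 and 59.7 CPM in KO 1 to 3. Of the 7 genes 6 passed the filter on low counts, through their KO counts alone, and all 6 were called higher, which follows from how they were chosen. Levels are not compared between genes because transcript lengths were not used here, and intervals cover counting error only.

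Duxf3 (ENSMUSG00000075046.7, chromosome 10, 58229505 to 58233089, GRCm38) had 19, 28 and 18 counts in KO 1 to 3. These are 0.592, 0.918 and 0.684 CPM, with a mean of 0.731 ± 0.168 (SD, n = 3), at least 8.13-fold higher than controls. The 95% exact Poisson intervals of the 3 KO samples overlapped each other, and none overlapped those of the controls. Duxf3 belongs to a tandem array of near-identical copies, so reads shared between copies may be missing from its count, and the counts of single copies are uncertain. Of the listed Dux relatives found in the tables, Duxbl2 and Duxbl3 had no count in any sample. The list holds no copies under clone names. Duxbl1, a double homeobox gene related to Dux, had 0.487 to 1.30 CPM in controls and 0.852 to 1.56 CPM in KO, ranges that overlap (log2 fold change 0.31, edgeR adjusted p = 0.708).

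Zfp352 (ENSMUSG00000070902.5, chromosome 4, 90218820 to 90225687) encodes a zinc finger protein known from the 2-cell embryo. It had 89, 49 and 95 counts in KO 1 to 3, or 2.77, 1.61 and 3.61 CPM, with a mean of 2.66 ± 1.01 CPM (SD, n = 3), at least 29.6-fold higher than controls. KO 2 was the lowest: its level over that of KO 1 and KO 3 combined was 0.510, with a 95% exact counting interval of 0.364 to 0.702. Zfp352 is alone among the 7 genes in having an interval wholly below 1. This is a description, since differences among KO samples were part of the choice.

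Tdpoz3 and Tdpoz4 encode proteins with a TRAF domain and a POZ domain, as does Spop, an adaptor of a ubiquitin ligase. They lie 28509 bases apart on chromosome 3. Tdpoz3 (ENSMUSG00000058005.3, 93826020 to 93827117) had 46, 48 and 28 counts in KO 1 to 3, or 1.43, 1.57 and 1.06 CPM, with a mean of 1.36 ± 0.263 (SD, n = 3), at least 15.1-fold higher than controls. Tdpoz4 (ENSMUSG00000060256.1, 93796398 to 93797510) had 37, 27 and 1 counts, or 1.15, 0.885 and 0.0380 CPM. The 95% exact Poisson interval of the single count in KO 3 is 0.0253 to 5.57 counts, while that of the count in KO 2 begins at 17.8. For Tdpoz4 the interval of KO 3 lay below those of KO 1 and KO 2 and overlapped those of the controls. For Tdpoz3 the intervals of all 3 KO samples overlapped. Differences among KO samples were part of the choice of these genes, so this is a description. The mean of Tdpoz4 was 0.692 ± 0.582 CPM (SD, n = 3), at least 7.69-fold higher than controls, and this gene did not pass the filter on low counts.

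The neighbouring relatives differed from Tdpoz4 in their order over the KO samples. Tdpoz1 had 7, 9 and 27 counts in KO 1 to 3 and Tdpoz2 had 1, 4 and 8, with 0 in every control for both. KO 3 was the highest sample for Tdpoz1 and Tdpoz2 and the lowest for Tdpoz3 and Tdpoz4. Tdpoz5 had no count in any sample. The family members outside the cluster were present in all samples: Spop had a log2 fold change of -0.08 (edgeR adjusted p = 0.737) and Spopl of 0.39 (edgeR adjusted p = 0.199), neither past the threshold. Tdpoz genes are close copies of one another, so the division of reads among them is uncertain.

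AF067061, Tcstv1 and Tcstv3 lie on chromosome 13. The name Tcstv stands for 2-cell-stage variable group, and these small genes have no well established biochemical role. AF067061 (ENSMUSG00000095071.2, 120263095 to 120264517) had 761, 843 and 773 counts in KO 1 to 3, or 23.7, 27.6 and 29.4 CPM, with a mean of 26.9 ± 2.90 (SD, n = 3), at least 299-fold higher than controls. Tcstv1 (ENSMUSG00000096284.2, 119893387 to 119894785) lies 368309 bases before it and had 329, 530 and 395 counts, or 10.3, 17.4 and 15.0 CPM, with a mean of 14.2 ± 3.63 (SD, n = 3), at least 158-fold higher. Tcstv3 (ENSMUSG00000095821.1, 120316862 to 120318261) lies 52344 bases beyond it and had 272, 240 and 260 counts, or 8.48, 7.87 and 9.88 CPM, with a mean of 8.74 ± 1.03 (SD, n = 3), at least 97.1-fold higher. No KO sample of these 3 genes came near the controls. The highest KO sample was 1.24 times the lowest for AF067061 and 1.26 times for Tcstv3, while for Tcstv1 it was 1.69 times, with the counting interval of KO 1 below those of KO 2 and KO 3.

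**Figure D1:**
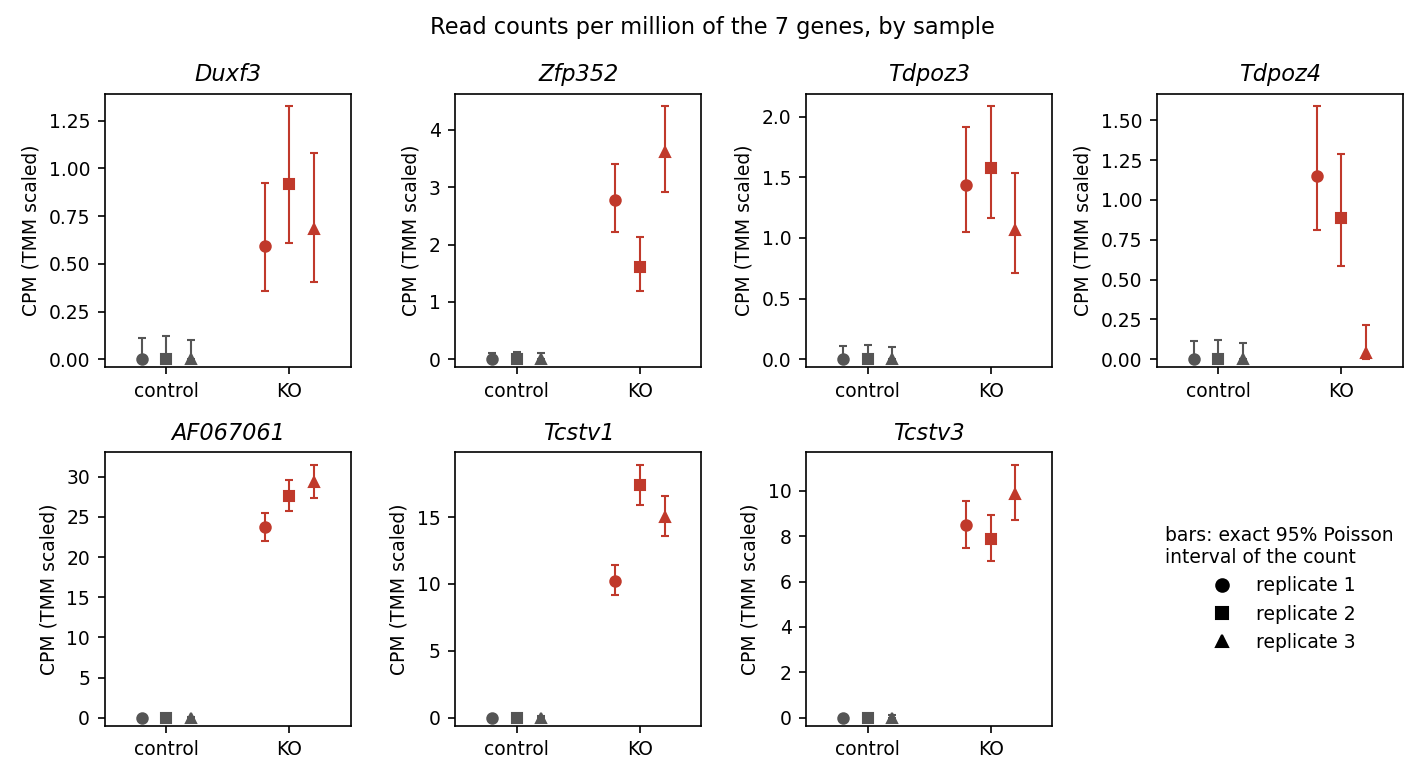
Levels of the 7 genes in each RNA sample, in CPM scaled by TMM on a linear axis that differs between panels. Grey symbols are the 3 controls and red symbols the 3 KO samples, the symbol shape gives the replicate, and bars are 95% exact Poisson intervals of the count. All controls are at 0, KO 2 is lowest for Zfp352, KO 1 is lowest for Tcstv1, and KO 3 is near 0 for Tdpoz4.

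The genes did not share one order over the KO samples. KO 1 was the highest for Tdpoz4, KO 2 for Duxf3, Tdpoz3 and Tcstv1, and KO 3 for Zfp352, AF067061 and Tcstv3. Counting intervals of KO 2 over the other KO samples lay below 1 for Zfp352, above 1 for Tcstv1 (1.40, interval 1.25 to 1.57), and spanned 1 for the other 5 genes. Over 18131 tested genes this ratio had a median of 0.999, with 0.621 and 1.36 as its 5th and 95th percentiles. The ratio of Zfp352 lies outside that range on the low side. Those of Tcstv1 and Duxf3 (1.45) lie outside it on the high side, the latter with an interval that spans 1. Such differences were part of the choice of the genes, so these ratios are descriptions and not tests.

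Neighbouring genes on chromosome 13 stood on both sides of 1 in KO 2. Gm21818, Gm20767 and B020031M17Rik stood above the other KO samples, at 1.76 (interval 1.48 to 2.09), 1.51 (1.38 to 1.66) and 1.61 (1.26 to 2.05). Gm21761, BC147527 and D13Ertd608e stood below them, at 0.375 (0.340 to 0.413), 0.550 (0.417 to 0.719) and 0.594 (0.371 to 0.924). Of 41 related and 2-cell genes detected in KO, 25 had an interval below 1, 4 above and 12 spanning it. The same count was not made over all tested genes. The intervals cover counting error only, so a gene with many reads can leave 1 by little, as Spop did at 1.07 (1.02 to 1.11). Several of the genes are also relatives within the Zscan4 and Usp17l families, so the count is a description. KO 2 was the lowest KO sample for 29 of these 41 genes and for 2 of the 7 genes of the set, against 29.3% of all tested genes. Zscan4c, which marks 2-cell-like cells and takes part in telomere maintenance, had 1043, 135 and 1054 counts in KO 1 to 3, a ratio of 0.123. The ratios of the other Zscan4 genes counted ran from 0.0981 for Zscan4e to 0.614 for Zscan4b. Duxf3, whose product activates Zscan4 genes in the embryo, had a ratio of 1.45 from 18 to 28 counts per KO sample. Its interval was wide, 0.854 to 2.43. Whether the levels of Duxf3 and the Zscan4 genes are linked was not tested.

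**Figure D2:**
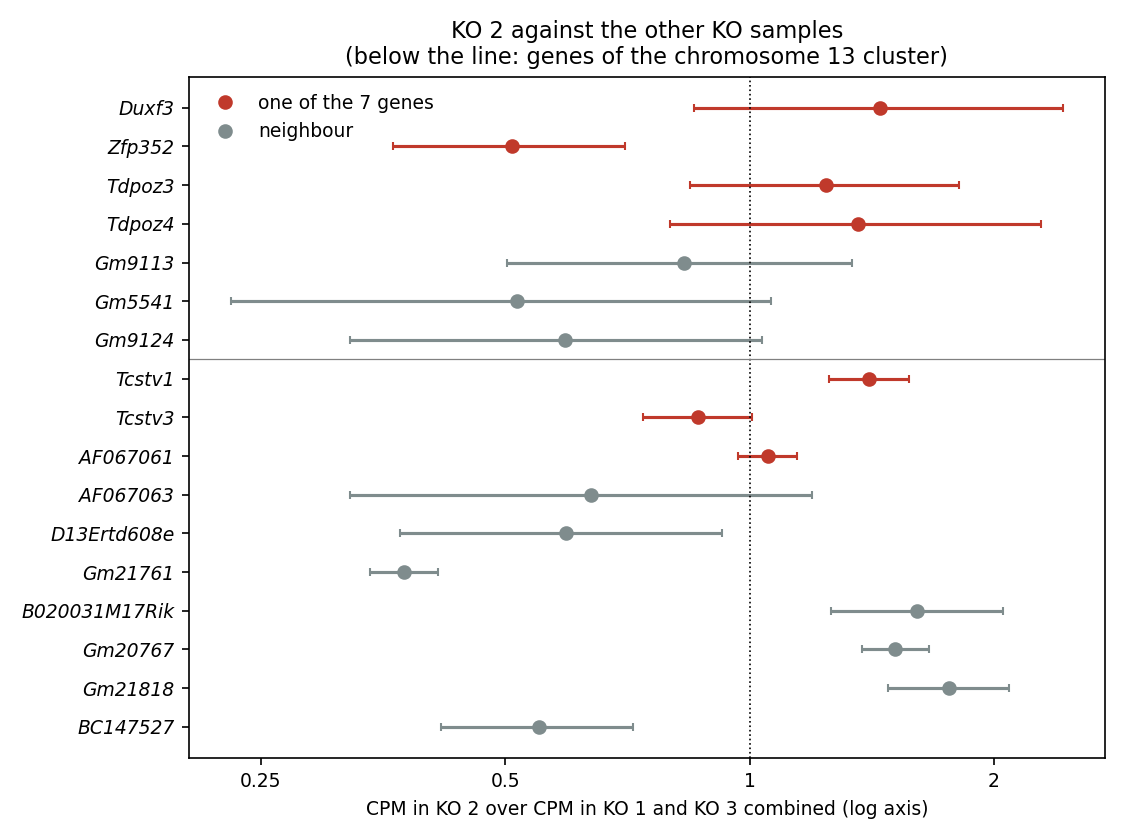
Level in KO 2 divided by that in KO 1 and KO 3 combined, on a log axis, for the 7 genes (red) and neighbouring genes (grey), with genes of the chromosome 13 cluster under the horizontal line. Bars are 95% exact counting intervals. Zfp352 lies at 0.510 and Tcstv1 at 1.40, and the chromosome 13 neighbours fall on both sides of 1, from 0.375 to 1.76.

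For each of the 7 genes, the genes with the most similar profile were found by Pearson r over the 6 RNA samples on log2(CPM + 1), leaving out clone names. With 3 controls at 0, any gene that is low in controls and high in KO has a high r, so r mostly ranks the likeness within KO. Not all the genes named are low in controls: Camta1 had up to 1151 counts there against 1190 to 1503 in KO, and Sorcs2 up to 1251 against 1161 to 1511. For Duxf3 these were Magel2, Slc10a6 and Camta1, with r of 0.9965 to 0.9947. For Zfp352, the gene with low KO 2, they were Usp17lc, Xlr5a and Usp26, with r of 0.9998 to 0.9991. For Tdpoz4, with low KO 3, they were Gpa33, Stk33 and Aldh3b2, with r of 0.9911 to 0.9902. The lists were Sorcs2, Six3os1 and Pdcd1 for Tdpoz3, Tuba3a, Six3 and Tuba3b for AF067061, Skint2, Tuba3b and Rhox2e for Tcstv1, and Cntnap5b, Usp17le and Tex19.1 for Tcstv3. Of 15264 genes compared, r was over 0.99 for 15 with Duxf3, 42 with Zfp352, 24 with Tdpoz3 and 3 with Tdpoz4. It was over 0.99 for 72 with AF067061, 62 with Tcstv1 and 83 with Tcstv3. Except for Tdpoz4, the genes named are therefore a few among many with a similar r. None of the 7 lists shared all its genes with another, and Tuba3b alone was on more than 1 list.

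Many, but not all, of the related and other 2-cell genes outside the set were also higher in KO samples. Of the 46 related and 2-cell genes counted, 35 passed the filter, 29 of those were higher in KO (background 6.36%), none was lower and 6 were not called. Their median log2 fold change was 9.62, or 6.24 with genes at 0 in controls set to their lower bound, against -0.00074 over all tested genes. Of the 46 genes 24 had no count in any control, and 20 of these had counts in KO. Genes that are at 0 in controls pass the filter only through KO, so the count describes the list and is no independent support, and the list was written with earlier results known. Usp17le, of a family of deubiquitinases, had 965, 801 and 929 counts in KO 1 to 3 and 0 in controls, at least 339-fold higher. Tmem92, a membrane protein gene, had 439, 403 and 499, and Usp17lb had 347, 333 and 349, also with 0 in controls. Zscan4d had 1865, 1140 and 2014 counts against 2, 0 and 0. Ddit4l, a stress-induced inhibitor of mTOR signalling that kidney cells also express, had 8.97 to 11.9 CPM in controls and 18.1 to 23.8 CPM in KO (log2 fold change 0.92, SE 0.18, edgeR adjusted p = 0.0126, and 0.0652 without KO 2). Trim43a, Trim43c and Sp110 did not pass the test.

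Genes within 250000 bases of the 7 genes were counted after the data had been seen. Of 42 such genes 19 passed the filter, 12 were higher in KO (background 6.36%) and 1 was lower by edgeR (background 8.23%). All of the 12 but Ranbp2 and Ccl28 had at most 2 counts in any control and passed the filter only through KO, and 4 of the 12 are also in the 2-cell lists above, so the count is a description. Beside the Tcstv genes on chromosome 13, 8 of 12 tested neighbours were higher. They include AF067063 (15, 14 and 27 counts in KO 1 to 3, 0 in controls) and Gm21761 (1244, 506 and 1338 counts against 1, 0 and 0). Ccl28, a chemokine of epithelial tissues, was higher with a log2 fold change of 1.34 (edgeR adjusted p = 0.0431), while Hmgcs1, an enzyme of cholesterol synthesis, was lower at -0.84 (edgeR adjusted p = 0.0137, but 0.0687 without KO 1 and 0.0695 without KO 3). In the Tdpoz cluster 8 of 13 neighbours had no count in any control and counts in every KO sample, as had 1.18% of all genes. Of the 4 tested there, Gm5541, Gm9113 and Gm9124 were higher, with 10 to 35 counts per KO sample and at most 2 in any control. Around Duxf3 1 of 3 tested neighbours was higher, Ranbp2, which encodes a nuclear pore protein, at 0.41 (edgeR adjusted p = 0.0379). The nearest neighbours of Duxf3 did not pass the filter. Gm10807 had 0, 2 and 0 counts in controls 1 to 3 and 16, 6 and 6 in KO 1 to 3. Gm4981 had 1, 0 and 1 counts in controls and 3, 6 and 4 in KO. Around Zfp352 none of the 3 neighbours passed the filter. The calls of Ccl28 and Ranbp2 were lost when any single library other than control 3 was left out, with edgeR adjusted p up to 0.142 and 0.168.

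Genes known to control Dux were examined next. Of the 23 counted, 20 passed the filter, 4 were higher and none was lower by edgeR, with a median log2 fold change of 0.11 (background 6.36% higher and 8.23% lower). Dppa2, which activates Dux in embryonic stem cells, had 1, 0 and 0 counts in controls and 11, 13 and 19 in KO, a log2 fold change of 5.16 (SE 0.82, edgeR adjusted p = 0.00458). Dppa2 passed the filter on low counts only through its KO counts, so its call is a description and no independent support. The size of that change rests on a single control read: it was 6.95 without control 1, 4.64 without control 3 and 4.06 with limma voom. Its partner Dppa4 had at most 3 counts in any sample and was not tested. The other 3 are repressors. Mga, a subunit of a variant Polycomb complex, had 82.8, 95.8 and 91.2 CPM in controls and 152, 137 and 124 in KO, a log2 fold change of 0.61 (SE 0.12, edgeR adjusted p = 0.0110). Zmym2, a zinc finger corepressor, and Rif1, a replication timing factor, had log2 fold changes of 0.43 (edgeR adjusted p = 0.0318) and 0.37 (edgeR adjusted p = 0.0333). For Dppa2, Mga, Zmym2 and Rif1 every KO sample lay above every control, as was so for 16.5% of tested genes.

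Uhrf1, which brings Dnmt1 to newly copied DNA, had 127, 134 and 136 CPM in controls and 163, 171 and 158 in KO, a log2 fold change of 0.31 that missed the threshold (edgeR adjusted p = 0.0806). Every KO sample of Uhrf1 lay above every control, as was so for 16.5% of tested genes. Trim28 and Setdb1, which silence retroviral elements through histone methylation, had log2 fold changes of 0.05 and 0.12, Smchd1 of 0.02, and the chromatin assembly factor genes Chaf1a and Chaf1b of 0.11 and -0.25, none past the threshold. The calls of Zmym2 and Rif1 were lost when any single library other than control 3 was left out, with edgeR adjusted p up to 0.138 and 0.159, and that of Mga without KO 1 (0.0606) or KO 2 (0.0522). The number of regulators called higher was then 1 without KO 1 or KO 2, which was Dppa2 each time. It was 2 without KO 3, control 1 or control 2, and 6 without control 3, when Uhrf1 also passed (edgeR adjusted p = 0.0238).

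**Figure D3:**
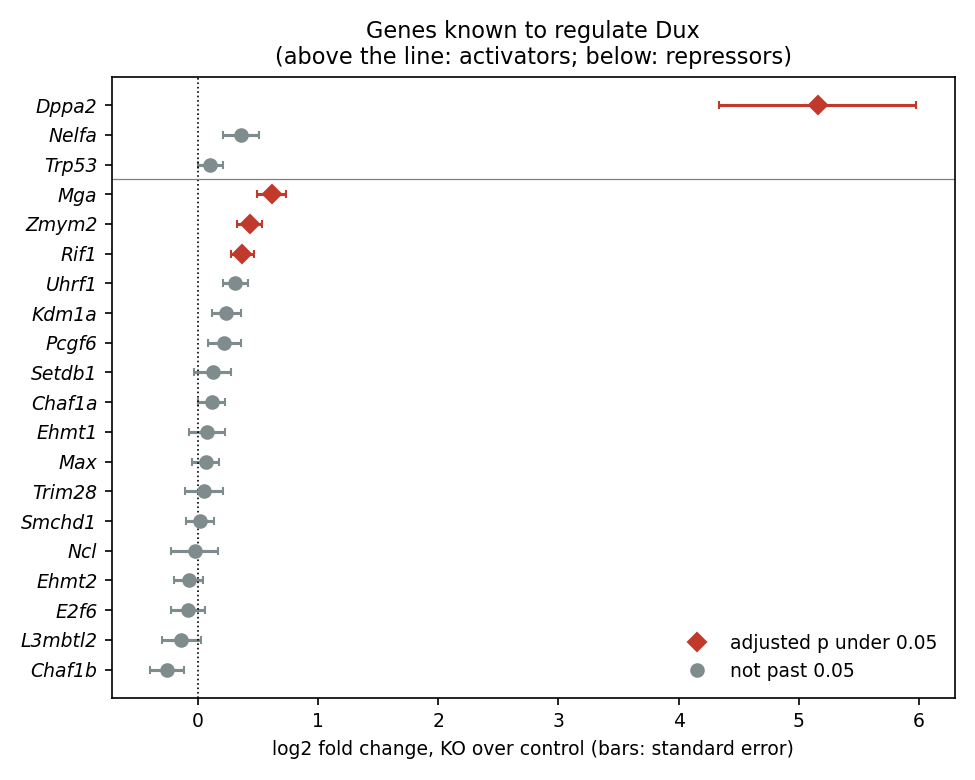
Log2 fold change of KO over control for the 20 tested genes known to regulate Dux, with activators above the line and repressors under it. Bars are standard errors and red diamonds mark an adjusted p under 0.05 by edgeR. Dppa2 stands at 5.16, with 1 read in all controls together, while the repressors lie between -0.25 and 0.61.

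Markers of other cell types were read beside the 2-cell genes. The background for each list is that of all tested genes, 6.36% higher and 8.23% lower in KO. Of 6 germ cell markers 4 passed the filter and 2 were higher in KO: Dazl, an RNA-binding protein of germ cells, with 0, 5 and 4 counts against 2060, 1780 and 2532, and Ddx4, a germ cell helicase, with 11, 15 and 24 against 70, 39 and 68. The other two did not pass the test: Kit, which other cell types also express, had 31.5 to 53.9 CPM in controls and 24.1 to 28.6 in KO, and Nanos3 had 1.49 to 2.65 and 1.77 to 1.81 CPM. The summed level of the germ cell list was 33.4 to 56.2 CPM in controls, mostly Kit, and 85.5 to 128 in KO, mostly Dazl. The listed markers Pou5f1 and Dppa3, which did not pass the filter, had at most 1 count of Pou5f1 in any sample and no count of Dppa3. The gonad soma list summed to 2.30 to 3.42 CPM in controls and 1.84 to 3.65 in KO, with Fshr and Foxl2 at 0 in every sample, and none of its genes was called. The adrenal list summed to 2.80 to 6.25 CPM and 4.39 to 4.46 CPM, also with no gene called. Of 3 stroma markers Foxd1, a transcription factor of stromal progenitors, was higher (log2 fold change 1.63, edgeR adjusted p = 0.00394) and the others were not called, with list sums of 1073 to 1552 CPM in controls and 1039 to 1204 in KO. Of 5 blood markers Ptprc, which marks white blood cells, was higher (0.79, edgeR adjusted p = 0.0330) and the 4 globin genes were not called, with sums of 389 to 1268 and 625 to 913 CPM. Whether cells of any of these types take part in the levels of the 7 genes was not tested.

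Methylation near the genes was a readout the choice had not used. RRBS fragments are sparse there, and the window used, the gene with 10000 bases on either side, held at least 3 positions with 5 or more calls in all 9 samples for Duxf3 (8 positions), Tdpoz3 (4) and Tdpoz4 (4). Some positions are neighbouring bases, such as 93835861 and 93835862 near Tdpoz3 and 93789763 and 93789764 near Tdpoz4. Positions are therefore not all separate sites. Calls at nearby positions may come from the same reads, so the binomial intervals below, which treat calls as independent, may be too narrow. At all 3 loci methylation was lower in KO than in P0 controls. Such a fall was general: of 34838 gene windows 69.4% were lower and 0.192% higher in KO by limma (67 windows higher, and 102 without KO 2). How many of all windows had groups that did not overlap was not counted. Groups that stand apart below are therefore a description and not a trait of these loci.

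At Duxf3 the methylated share of calls for controls 1 to 3 was 93.3%, 88.1% and 94.0%. For KO 1 to 3 it was 70.2%, 55.3% and 77.8%. The groups did not overlap, and KO 2 was the lowest. The means were 91.8% ± 3.24 and 67.8% ± 11.4 (SD, n = 3 each), a difference of -24.0 percentage points. The limma adjusted p was 0.00348 (range over settings 0.00133 to 0.0168), and the two-sided exact permutation p was 0.1, the smallest that 3 against 3 allows. At 2 of the positions, 58230592 and 58230619, the cytosine lies inside the gene bounds, and the others lie 6662 to 7253 bases outside. The first of the inner positions had 95.3%, 78.9% and 89.4% in controls (mean 87.9%) and 76.5%, 46.5% and 79.3% in KO (mean 67.4%). KO 3 lay above control 2 there, so at this single position the groups overlapped. At the other inner position they did not. At some outer positions the groups overlapped as well, with KO 3 at 100% at 58240317 and 58240342, and at others they did not. Reads from near-identical Dux copies may also meet here.

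At Tdpoz3 the share was 91.8%, 92.3% and 95.5% in controls and 72.1%, 74.3% and 68.1% in KO, with no overlap. The difference was -21.7 points (limma adjusted p = 0.000300, exact permutation p = 0.1). Tdpoz4 began lower in controls, at 82.4%, 75.8% and 78.6%, and its KO samples had 51.7%, 41.8% and 56.0%. The difference of -29.1 points (limma adjusted p = 0.000339, exact permutation p = 0.1) again left the groups apart. The positions lie 8709 to 8785 bases beyond the upper bound of Tdpoz3 and 6585 to 6674 bases before the lower bound of Tdpoz4, so they describe the flanks and not the promoters. The KO 3 sample, which had 1 Tdpoz4 read in RNA, had the highest of the KO values near Tdpoz4. Its 95% exact binomial interval, 44.7% to 66.8%, overlapped those of KO 1 (46.4% to 57.0%) and KO 2 (36.1% to 47.7%). Near Tdpoz3, KO 3 had the lowest KO value and also the lowest RNA level of the KO samples. The labels do not say that RNA and RRBS samples of one number share an animal, and a link between methylation and RNA was not tested.

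The falls at Duxf3 and Tdpoz3 resembled those of other methylated windows. The 7579 windows with a control mean of at least 80% had a median change of -23.7 points, with quartiles of -27.6 and -19.7. Duxf3 and Tdpoz3 lie within these quartiles. Tdpoz4, with a control mean of 78.9%, is just outside that class. Its change of -29.1 points lay beyond the quartile of -27.6 points. Over all windows, whatever their control level, the median was -12.7 points.

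In wild-type adults, 13.1% of windows (4569) were lower and 3.66% (1276) higher than in P0 controls, and with single libraries left out 2387 to 3769 and 762 to 862. Duxf3 had 96.0%, 85.3% and 91.8%, overlapping the controls, a difference of -0.789 points (limma adjusted p = 0.984, exact permutation p = 0.8) that was 2.08 without adult 2 and 0.322 without control 3. Tdpoz3 had 88.5%, 90.6% and 86.4%, a difference of -4.70 points that missed the threshold (limma adjusted p = 0.121, exact permutation p = 0.1). Tdpoz4 had 69.7%, 55.7% and 63.6%, below all controls. Adult 2 lay within the range of the KO samples and the other two adults above it. The difference of -15.9 points passed (limma adjusted p = 0.0220, exact permutation p = 0.1), but not without control 1, adult 2 or adult 3, when the limma adjusted p was 0.0788, 0.0845 and 0.0627. RNA of adults was not analysed here.

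**Figure D4:**
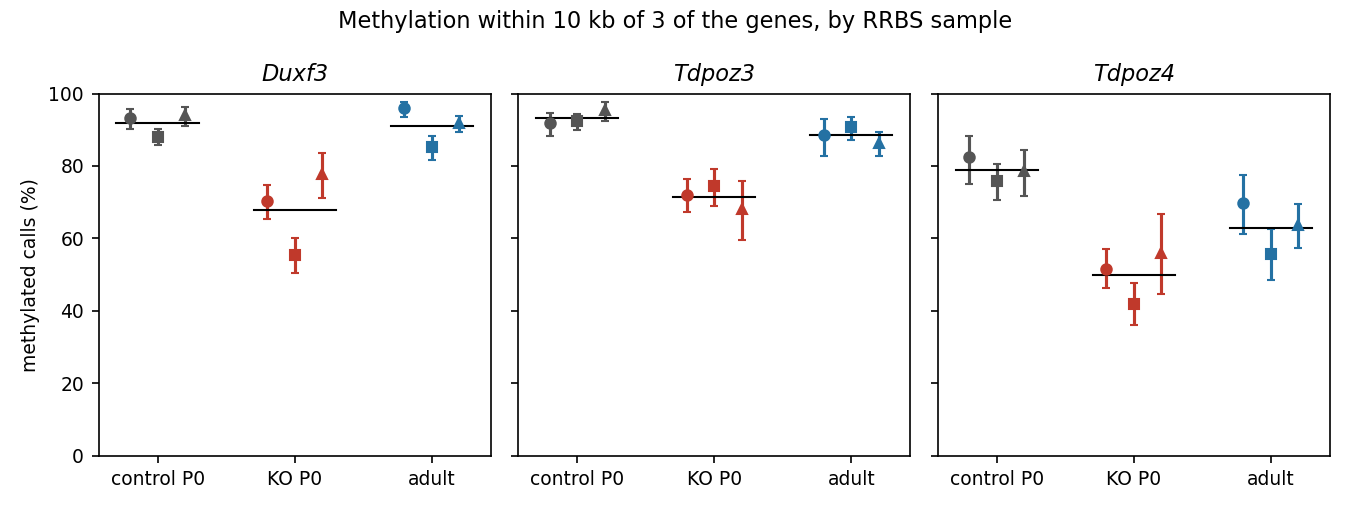
Methylated share of RRBS calls (percent) within 10000 bases of Duxf3, Tdpoz3 and Tdpoz4 in each of 9 samples. Symbols are samples with 95% exact binomial intervals, shapes give the replicate and horizontal lines the group means, which fall from 91.8% to 67.8% at Duxf3 and from 78.9% to 49.8% at Tdpoz4 between P0 controls and KO.

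For the other 4 genes the RRBS coverage gave no test. AF067061 had 1 usable position, 4579 bases before the gene, with 94.4%, 69.0% and 100% in controls and 61.5%, 38.1% and 0% in KO, from as few as 5 calls in KO 3. Tcstv3 had 4 to 43 calls per sample at any depth, and Zfp352 and Tcstv1 at most 7. At the AF067061 position the KO samples lay below the controls, but a single position was not tested. For Zfp352, Tcstv1 and Tcstv3 a methylation difference was not detectable at this depth.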

How the data were processed

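RNA sequencing of 3 P0 controls and 3 P0 KO kidney samples and RRBS of 3 P0 controls, 3 P0 KO samples and 3 adults were used. The deposited RNA files hold raw read counts per gene, and the deposited RRBS files hold, per cytosine position, a methylation percent with the counts of methylated and unmethylated calls. The submitters' processing notes name Trim Galore, Bismark, STAR 2.4.1d and HTSeq 0.6.1 and the builds mm10 and GRCm38, without saying which step each served, and the strand setting of the counting is not given in the sources used here. Reads from overlapping or antisense genes therefore cannot be told apart.

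The 7 genes, the gene lists and the tests were chosen with earlier results of these data known. Counts were scaled by TMM and tested in edgeR 4.0.16 (R 4.3.3) with filterByExpr, glmQLFit, glmQLFTest and Benjamini-Hochberg adjustment at 0.05 over 18132 genes. Rows of unassigned reads stayed out of library sizes: reads without a feature came to 5.00% to 8.38% and ambiguous reads to 1.35% to 1.75%. Fitted log2 fold changes of genes with no control count depend on the prior count of edgeR (0.125) and enter the text only through a list median, which is also given with such genes at their lower bound. Methylation was summed over gene windows, requiring 5 or more calls at a position in each of the 9 samples and 3 or more such positions in a window, and log2((methylated + 1) / (unmethylated + 1)) was tested in limma 3.58.1 with a trend over 34838 windows. Flanks of 5000 bases had been planned but left none of the 7 genes testable, so flanks of 10000 bases were used, a choice made after seeing the data. The scripts were tested on simulated data. Promoter windows and gene bounds are from RefSeq, GRCm38.p6, and 46005 of 46517 gene IDs had a symbol.

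Named genes were the 7 genes, Dnmt1, up to 10 called genes of the related and regulator lists and the 3 most similar genes for each of the 7. Neighbouring genes and the uncalled genes named beside them were chosen after their values were seen. Alternatives were DESeq2 1.42.0, limma voom, other scalings and count filters, a stricter adjusted p, other prior counts, other call minimums and flanks, means of position percents, a replicate block and leaving out each library.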

Additional observations from a re-analysis of the deposited data

How the results depend on the processing

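RNA counts of calls depended on the tool and threshold. Genes higher in KO numbered 1153, 2442 with limma voom, 678 with at least 10 counts in every sample, 528 at an adjusted p under 0.01 and 647 to 2512 without single libraries. Genes lower numbered 1493, and then 2595 with limma voom, 681 at an adjusted p under 0.01 and 701 to 2561 without single libraries. Related and 2-cell genes called higher numbered 29, and 28 to 31 without single libraries. At least 10 counts in every sample left 1 of them, and 2 of 12 neighbouring genes, since it drops genes with no control counts. Without single libraries the neighbours numbered 10 to 13. Regulators called higher fell from 4 to 2 with library size alone or with no filter, to 1 at an adjusted p under 0.01, and ran from 1 to 6 without single libraries.

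The methylation differences of KO kept direction and call in every alternative run, from -29.0 to -17.8 points at Duxf3, -23.1 to -20.0 at Tdpoz3 and -32.2 to -25.1 at Tdpoz4. Windows higher in KO numbered 52 to 102 without single libraries. Windows lower in adults numbered 1549 with means of position percents and 2387 to 3769 without single libraries, and windows higher in adults 762 to 862. The adult difference at Duxf3 changed sign without control 3 (0.322) and without adult 2 (2.08), and ran from -3.27 to 2.08 without single libraries and from -5.96 to 2.08 over every alternative. At Tdpoz4 it ran from -19.3 to -12.3 and missed the threshold without control 1 (-14.2), adult 2 (-12.3) or adult 3 (-16.2). Where no cause is named, it was not tested. Flanks of 2000 or 5000 bases and windows around the start site gave no value at the planned minimum of 5 calls.

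Replicate numbers are shared between groups, but samples with the same number did not deviate together: the RNA correlations of deviations were -0.28, -0.10 and -0.15. With a replicate block, regulators called higher numbered 2, since Zmym2 and Rif1 lost their calls, and Ranbp2 and Ccl28 lost theirs. Genes higher and lower numbered 798 and 1005, and the Duxf3 methylation difference stayed at -24.0 points (limma adjusted p = 0.00133). Depth limits Duxf3 and the Tdpoz genes in RNA, with 1 to 48 counts per KO sample, and KO 3 in RRBS, with a median of 4 calls per position.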
